A study of Homo sapiens with 6 samples.

Results

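IFIT1, IFIT2, IFIT3 and IFIT5 are the 4 genes described here, out of 63677 genes in the deposited tables, and they are represented by 7 of 215170 transcripts. They were found by symbol in the authors' table that pairs transcripts with genes, and transcript values were summed per Ensembl gene ID. The family was selected on its higher level in HA-TAZ libraries in earlier results of these data, so the differences between the groups below are a description of those levels and carry no test. RNA came from KMS27, an established human line of malignant plasma cells. The 3 libraries of the HA-TAZ group came from KMS27 cells that overexpressed TAZ, the transcriptional coactivator encoded by WWTR1, with an HA peptide tag. The 3 control libraries came from KMS27 cells labelled wild type, whose sample titles carry the letters HA. Their columns carry the name scr, which is in no label. They were placed in the wild type group by elimination and are written here as controls a, b and c. The promoter of the construct, whether the cells were a clone, and whether the controls received a construct are not given in the sources used here. No label says that the libraries of a group came from separate cultures, so the p-values given for other genes measure only the spread between these libraries, which may be technical.

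IFIT proteins (interferon-induced proteins with tetratricopeptide repeats) are cytoplasmic effectors of the antiviral response. Type I and type III interferons act through JAK kinases and a transcription factor complex that contains IRF9, which binds the interferon-stimulated response element in the promoters of these genes, and interferon regulatory factors such as IRF3 and IRF1 can act on the same element. IFIT1 binds the 5 prime end of RNAs that lack cap methylation and blocks their translation. IFIT3 stabilises IFIT1 on RNA and links MAVS to TBK1, IFIT2 binds AU-rich RNA and can promote apoptosis, and IFIT5 binds 5 prime triphosphate RNA and acts alone. The 4 genes lie in 1 cluster on chromosome 10 with the related gene IFIT1B.

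The promoters are shown because they carry what the members share in sequence. RefSeq (GRCh38.p14) held windows of 250 bases before to 50 bases after the start for 3 of the 4 members, IFIT1, IFIT3 with a pair of starts, and IFIT5, and for IFIT1B. IFIT2 was not matched. All are on the plus strand, and 110 bases of each are printed 5 prime to 3 prime, from chr10:89392436-89392545 for IFIT1, chr10:89327784-89327893 and chr10:89332378-89332487 for the upstream and downstream starts of IFIT3, chr10:89414464-89414573 for IFIT5 and chr10:89377946-89378055 for IFIT1B. Capitals mark matches to the interferon-stimulated response element, searched as GAAANNGAAA on both strands.
IFIT1: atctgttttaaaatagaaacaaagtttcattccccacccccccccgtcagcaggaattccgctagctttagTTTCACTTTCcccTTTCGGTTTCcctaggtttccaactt
IFIT3 upstream start: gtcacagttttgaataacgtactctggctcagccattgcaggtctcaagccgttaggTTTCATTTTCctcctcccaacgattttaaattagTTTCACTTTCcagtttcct
IFIT3 downstream start: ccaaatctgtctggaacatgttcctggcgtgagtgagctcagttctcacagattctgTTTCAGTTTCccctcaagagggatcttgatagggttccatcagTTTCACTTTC
IFIT5: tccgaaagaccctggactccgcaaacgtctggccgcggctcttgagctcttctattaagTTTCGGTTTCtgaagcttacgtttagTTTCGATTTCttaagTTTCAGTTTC
IFIT1B: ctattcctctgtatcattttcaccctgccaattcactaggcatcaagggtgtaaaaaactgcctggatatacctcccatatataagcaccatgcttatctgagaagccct
All matches read TTTCNNTTTC on the plus strand and none of them overlap. IFIT1 had matches beginning at −116 and −103 from its RefSeq start, the upstream start of IFIT3 at −156 and −122, the downstream start of IFIT3 at −94 and −51, and IFIT5 at −45, −19 and −4. IFIT1B had 0 matches in its window. Of all 35116 windows of this length, 1255 (3.57%) held a match. Of the 39 windows of a list of interferon-stimulated genes described below, 20 (51.3%) held one. The motif of TEAD factors, the DNA-binding partners of TAZ, searched as GGAATG on both strands, was found once in the window of IFIT1 (−160) and once in that of the upstream start of IFIT3 (−246), and in 14.0% of all windows. The gamma-activated site, an element of the response to interferon gamma, searched as TTCNNNGAA, was in none of these 5 windows and in 7.66% of all windows. A match describes letters in a window and shows no binding.

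WWTR1 ranged from 293 to 306 TPM in the 3 overexpression libraries, against 1.69 to 2.69 TPM in controls (limma, Benjamini-Hochberg adjusted p = 1.14e-05), the direction the labels state. TPM (transcripts per 1000000 transcripts of a library) takes the length of each transcript into account, so levels can be compared between genes. The deposited values carry no depth. Libraries differed in composition, with scaling factors from 0.866 to 0.967 in HA-TAZ and from 1.06 to 1.21 in control libraries, and TPM over the library's factor is called scaled TPM. All 8 plasma cell markers of a fixed list, among them SDC1, TNFRSF17 and IRF4, had a mean of at least 1 TPM, and their sum was 550 to 599 TPM in HA-TAZ libraries and 653 to 743 TPM in controls. Of 20 markers of T, myeloid, fibroblast, epithelial and endothelial cells, 6 had a mean of at least 1 TPM (CSF1R, COL1A1, DCN, KRT8, CDH1 and PECAM1) and 0 were listed at 0 in all libraries. The sums over T cell markers were 0.127 to 0.248 TPM in HA-TAZ and 0.609 to 0.699 TPM in control libraries. Those of epithelial markers were 2.78 to 3.898 and 4.98 to 6.08 TPM, of endothelial markers 1.69 to 2.25 and 2.73 to 4.12 TPM, of myeloid markers 1.74 to 1.93 and 1.91 to 2.25 TPM, and of fibroblast markers 3.18 to 4.01 and 3.79 to 4.89 TPM, each in the same order. The part of these differences in the results below was not tested, and in bulk RNA a change in the number of cells that express a gene and a change in RNA per cell cannot be told apart.

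All 4 IFIT genes were higher in every HA-TAZ library than in every control library. IFIT2 (ENSG00000119922) was at 6.22, 7.87 and 6.98 TPM in HA-TAZ 1, 2 and 3, and at 0.544, 0.603 and 0.3501 TPM in control a, b and c. It went from the lowest of the 4 genes in controls to the highest in each HA-TAZ library, although its range there overlapped that of IFIT5. IFIT3 (ENSG00000119917) was at 4.92, 4.92 and 4.30 TPM in the HA-TAZ libraries, against 0.977, 0.864 and 0.806 TPM in the controls. IFIT1 (ENSG00000185745) was at 4.86, 4.99 and 3.996 TPM against 1.53, 1.26 and 1.19 TPM in the same order of libraries. IFIT3 and IFIT1 had overlapping values in HA-TAZ libraries, while in controls every value of IFIT1 lay above every value of IFIT3. IFIT5 (ENSG00000152778) was at 5.44, 6.50 and 5.60 TPM in HA-TAZ libraries, against 2.95, 3.14 and 2.72 TPM in controls, the highest control level of the family.

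**Figure D1:**
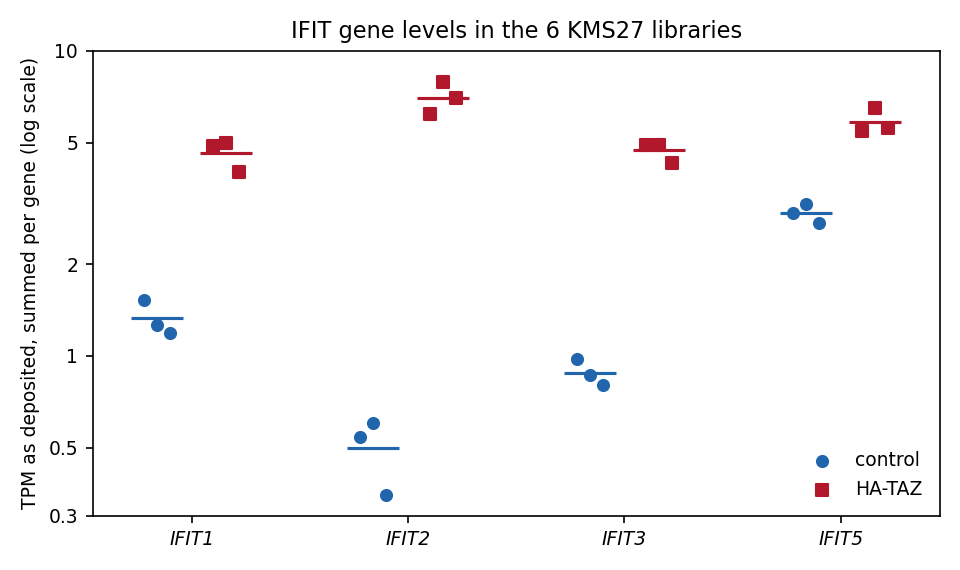
TPM as deposited on a log axis for the 4 IFIT genes, with 1 point per library (circles for 3 controls, squares for 3 HA-TAZ libraries) and a line at each group's mean. The groups are separate for each gene, most widely for IFIT2 (means of 0.499 and 7.02 TPM) and least for IFIT5 (means of 2.94 and 5.85 TPM).

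The size of the difference was graded across the family. The ratio of mean scaled TPM in HA-TAZ over control libraries was 17.4 for IFIT2, 6.60 for IFIT3, 4.30 for IFIT1 and 2.45 for IFIT5. With TPM as deposited the ratios were 14.1, 5.34, 3.48 and 1.99 in the same order. Each library has 1 factor for all genes, so the scaling changes these ratios nearly alike and the shared order supports nothing. The place of IFIT1 in this order depends on unlike transcripts, described below. ENST00000546318.1 made up 96.5% of IFIT1 in controls and averaged 1.28 TPM there, against 1.58 TPM in HA-TAZ libraries. ENST00000371804.3 averaged 0.0476 TPM in controls and 3.03 TPM in HA-TAZ libraries. On the scale log2(scaled TPM + 1), which understates changes at these low levels, the differences were 2.60 for IFIT2 (SE 0.10), 1.79 for IFIT3 (SE 0.10), 1.48 for IFIT1 (SE 0.11) and 1.04 for IFIT5 (SE 0.09). With a pseudocount of 0.1 they were 3.86, 2.58, 2.01 and 1.26. Group means in scaled TPM were 7.72 ± 0.493 and 0.445 ± 0.111 for IFIT2, 5.20 ± 0.439 and 0.788 ± 0.0235 for IFIT3, 5.09 ± 0.567 and 1.18 ± 0.0749 for IFIT1, and 6.43 ± 0.247 and 2.63 ± 0.225 for IFIT5 (HA-TAZ and control, SD, n = 3 each). These SDs describe the spread between libraries, and no test is drawn from them, since the family was selected on this difference.

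**Figure D2:**
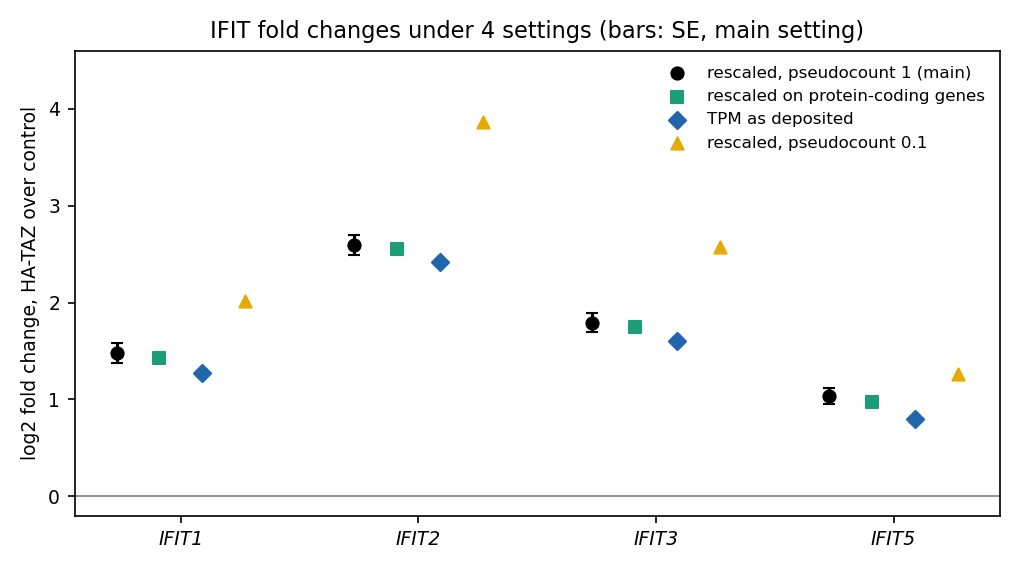
Log2 fold change of HA-TAZ over control for each IFIT gene under 4 settings, with bars of 1 SE for the main setting. Each value lies above 0, the order IFIT2, IFIT3, IFIT1, IFIT5 is the same in each setting, and the pseudocount of 0.1 gives the highest values (3.86 for IFIT2).

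All 4 genes passed the filter of a mean of at least 1 TPM over the 6 libraries, and IFIT2 and IFIT3 passed it only through their HA-TAZ values, since their control means were 0.499 and 0.882 TPM. In the limma test over all genes, 4.67% were called higher in HA-TAZ libraries (Benjamini-Hochberg adjusted p under 0.05). All 4 members were among them. The groups did not overlap, with HA-TAZ higher, for 20.2% of all tested genes in scaled TPM and for 4.41% in TPM as deposited, and for the 4 members on both scales. Since the family was chosen for this difference, nothing is read from these counts.

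The makeup of the family's RNA differed between the groups as well. The 4 genes together were at 21.4, 24.3 and 20.9 TPM in HA-TAZ 1, 2 and 3, and at 6.0005, 5.87 and 5.06 TPM in control a, b and c. IFIT5 made up 52.1 ± 2.58% of this sum in controls and 26.3 ± 0.812% in HA-TAZ libraries (SD, n = 3 each). IFIT2 made up 8.75 ± 1.70% in controls and 31.6 ± 2.34% in HA-TAZ libraries, and IFIT3 made up 15.6 ± 0.817% and 21.3 ± 1.47% (SD, n = 3 each). The shares of these 3 genes did not overlap between the groups. The share of IFIT1 overlapped, at 21.6 to 25.5% in controls against 19.1 to 22.7% with HA-TAZ.

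Single transcripts showed which RNAs carried these levels. Their shares are estimates by the authors' quantifier where transcripts of a gene have exons in common. For IFIT1 the transcript with the larger share differed between the groups. ENST00000371804.3 was at 3.49, 2.98 and 2.62 TPM in HA-TAZ 1, 2 and 3, and at 0.0518 and 0.0909 TPM in control a and b, and it was listed at 0 in control c. It made up 65.8 ± 6.04% of IFIT1 in HA-TAZ libraries and 3.53 ± 3.60% in controls (SD, n = 3 each), and it carried 90.8% of the difference between the gene's means. In GENCODE release 29 this transcript has 2 exons and 1880 bases, the arrangement of the IFIT genes in which the first exon holds little more than the start codon and the second holds nearly all of the coding sequence. The other transcript, ENST00000546318.1, was at 1.37, 2.01 and 1.37 TPM in HA-TAZ libraries, against 1.48, 1.17 and 1.19 TPM in controls. These values overlapped between the groups in TPM as deposited, while in scaled TPM the groups were apart, at 1.54 to 2.08 and 1.08 to 1.22. Release 29 lists a later version of it, ENST00000546318.2, with 3 exons and a last exon of 4206 bases against 1708 in ENST00000371804.3. The version in the authors' table was not analysed for its structure.

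For IFIT3 the transcripts of GENCODE release 29 differ in the first exon and correspond to the pair of starts printed above. ENST00000371811.4, from the downstream start, was at 3.54, 3.40 and 2.90 TPM in HA-TAZ libraries, against 0.977, 0.647 and 0.806 TPM in controls. Release 29 lists the second one in a later version, ENST00000371818.8, which begins at the upstream start, and the version in the authors' table was not analysed for its structure. ENST00000371818.4 was at 1.38, 1.52 and 1.39 TPM in HA-TAZ libraries. It was listed at 0 in control a and c and at 0.217 TPM in control b. Both transcripts were higher in every HA-TAZ library than in every control, and ENST00000371818.4 had a value above 0 in 1 of 3 controls. It carried 35.5% of the difference between the IFIT3 means and made up 28.1 to 32.5% of the gene in the 3 HA-TAZ libraries, against 25.2% in control b and 0% in control a and c. The share in control b thus lay close to the HA-TAZ range. Its mean over the 6 libraries was 0.752 TPM, below the filter.

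The transcripts of IFIT5 had similar levels in each group. ENST00000371795.4 was at 3.03, 3.34 and 2.84 TPM in HA-TAZ libraries, against 1.80, 1.40 and 1.66 TPM in controls. ENST00000416601.1 was at 2.41, 3.16 and 2.76 TPM and at 1.15, 1.73 and 1.06 TPM. The share of ENST00000371795.4 in the gene overlapped between HA-TAZ libraries (50.6 to 55.7%) and controls (44.7 to 61.2%). IFIT2 had 1 transcript in the table, ENST00000371826.3, whose values are those of the gene. Of the 7 transcripts, 6 passed the filter and 4 were called higher, against 0.432% of all transcripts tested (limma, Benjamini-Hochberg adjusted p under 0.05), and nothing is read from this count. ENST00000546318.1 and ENST00000416601.1 passed the filter without a call.

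**Figure D3:**
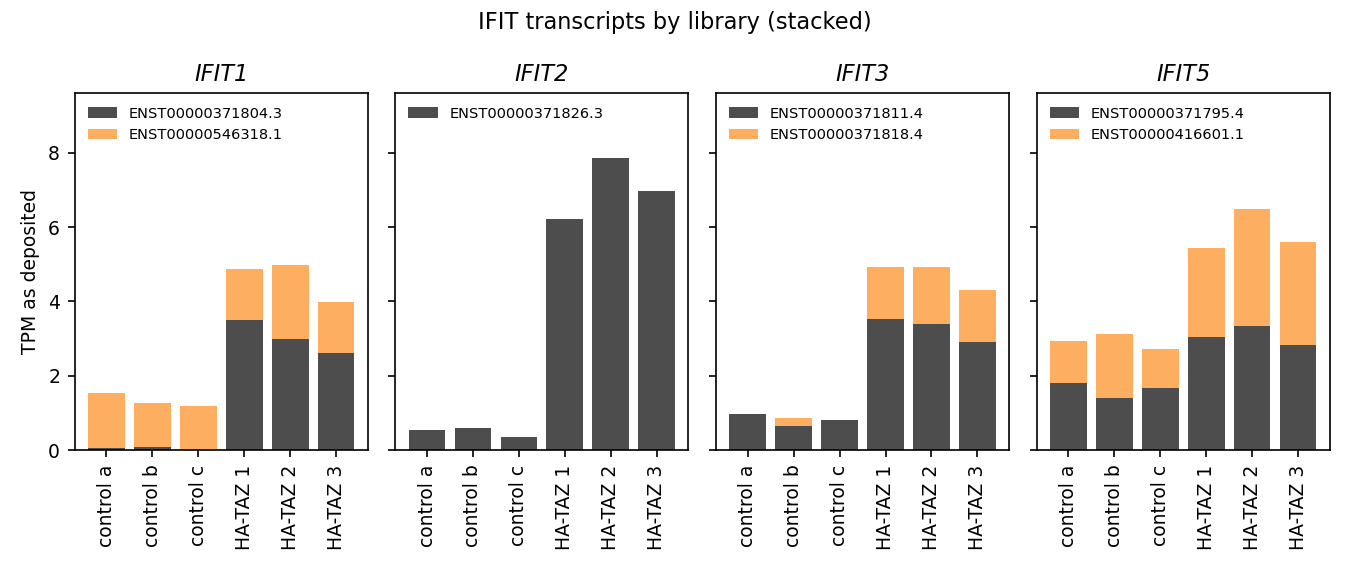
Stacked TPM as deposited of each annotated transcript of the 4 IFIT genes in each of the 6 libraries. ENST00000371804.3 is a thin band at most in the control bars of IFIT1 and makes up 65.8% of the gene on average in HA-TAZ libraries. ENST00000371818.4 shows in the IFIT3 bar of control b alone among the controls, at 25.2% of the gene, and in every HA-TAZ bar.

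The authors' deposited table gives the depth behind these values. It holds an effect of HA-TAZ over control and a mean per transcript, both on the natural log scale of scaled estimated counts, from which a typical count per group follows. From the authors' deposited table, IFIT2 had about 1725 estimated counts in an HA-TAZ and 96.0 in a control library, which corresponds to a counting error of 2.41% and 10.2%. For ENST00000371804.3 of IFIT1 the authors' deposited table implies 379 and 2.97 estimated counts, and for ENST00000371818.4 of IFIT3 it implies 246 and 1.98. Both transcripts were listed at 0 in some controls, so these implied control values depend on an offset for zeros that is not stated. They are not the count of a typical control library, and no counting error is given for them. Both transcripts are given as levels with no fold. The counting errors of IFIT2 cover counting only. On the natural log scale, the effects in the authors' deposited table were 2.89 (SE 0.154) for IFIT2, 1.63 (SE 0.138) for ENST00000371811.4 of IFIT3, and 0.868 (SE 0.0969) and 0.988 (SE 0.179) for the transcripts of IFIT5. For ENST00000546318.1 of IFIT1 the authors' deposited table gives an effect of 0.428 (SE 0.121).

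The members are similar in sequence but can mostly be told apart by short reads. Among the transcripts whose version is also in GENCODE release 29, IFIT2 and IFIT3 shared 0 of their 31-base words with transcripts of another IFIT gene, and IFIT5 shared 3 of 3985. ENST00000371804.3 of IFIT1 shared 85 of 1850 (4.59%). IFIT1B, the nearest relative of IFIT1, was at 0.0123 TPM in HA-TAZ 3 and listed at 0 in HA-TAZ 1 and 2, and it was at 0.0434 and 0.00777 TPM in control a and b and listed at 0 in control c. The pseudogene IFIT1P1 overlapped between HA-TAZ (0.0610 to 0.228 TPM) and control libraries (0.170 to 0.281 TPM), and IFIT6P was listed at 0 in all 6 libraries.

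Among genes known to act upstream of the IFIT genes, IFNB1, IFNL1, IRF1 and IRF9 were higher in HA-TAZ libraries, and both interferon mRNAs were below 1 TPM. The part of any of them in the IFIT levels was not tested. IFNB1, which encodes interferon beta, was at 0.559, 0.510 and 0.445 TPM in HA-TAZ libraries, against 0.0906, 0.0215 and 0.0325 TPM in controls. The groups did not overlap, but the gene was below the filter, and the authors' deposited table implies 24.3 and 2.07 estimated counts for a typical library of each group, with a q-value of 0.0155. IFNL1, a type III interferon named after its values were seen, was at 0.657, 0.755 and 0.683 TPM against 0.118, 0.168 and 0.0633 TPM (q = 0.00401 in the authors' deposited table). IFNA1 and IFNA2 were listed at 0 in all libraries. IFNAR1 and IFNAR2, the chains of the type I receptor, had log2 fold changes of 0.18 and 0.06 without a call (limma, adjusted p = 0.110 and 0.630).

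IRF1, an activator that can act on the interferon-stimulated response element, rose from 25.6 ± 0.973 to 43.0 ± 0.244 TPM (SD, n = 3 each). Its log2 fold change was 1.02 (SE 0.06, limma, Benjamini-Hochberg adjusted p = 0.00243). IRF9, a DNA-binding partner of STAT2, rose from 13.4, 9.50 and 11.9 TPM in controls to 17.8, 19.8 and 17.3 TPM in HA-TAZ libraries, by 0.91 on the log2 scale (SE 0.10, limma, adjusted p = 0.0138). STAT2 rose by 0.33 (SE 0.06, limma, adjusted p = 0.0359) in scaled TPM, while with TPM as deposited its change was 0.04 without a call and its groups overlapped. IRF7 (log2 fold change 0.66, limma, adjusted p = 0.0605) and IRF3 (0.10, limma, adjusted p = 0.466) were not called. Of the 23 ligands, receptors and signalling genes on this list, 16 were tested, 6 were called higher, IRF1, IRF9 and STAT2 among them, and 0 lower by limma, with a median log2 fold change of 0.16 beside −0.03 over all tested genes. By the same adjusted p, 4.67% of all tested genes were called higher and 2.63% lower. At an unadjusted p under 0.05 the list had 8 higher and 1 lower, and the share over all genes was not counted at that threshold. Over all genes, 1057 were called higher and 595 lower, with TPM as deposited 261 and 3068, and with the factor from protein-coding genes 660 and 859. With TPM as deposited, 2 of the list were called higher (IRF1 and IRF9) and 1 lower, and that setting moves the median of all genes to −0.27. IRF1 alone was called in each of the 6 fits that left out 1 library, and STAT2 lost its call in all of them. The count was 1 without HA-TAZ 1, HA-TAZ 2 or HA-TAZ 3, 3 without control a, and 2 without control b or control c.

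Sensors of foreign nucleic acid lead to IFIT expression through IRF3. Of 11 genes for sensing RNA and DNA, 10 were tested, with a median log2 fold change of 0.20 beside −0.03 over all tested genes. By limma 2 of the 10 were called higher and 0 lower, against 4.67% and 2.63% of all tested genes. At an unadjusted p under 0.05 there were 5 higher and 0 lower, and the share over all genes was not counted at that threshold. IFIH1, which encodes the double-stranded RNA sensor MDA5, rose by 0.81 (SE 0.09, limma, adjusted p = 0.0128), and TMEM173, which encodes STING, by 0.39 (SE 0.08, limma, adjusted p = 0.0475). IFIH1 lost its call without HA-TAZ 1, HA-TAZ 2 or control b, and TMEM173 lost it in each fit that left out 1 library. With TPM as deposited the change of TMEM173 was 0.16 without a call and its groups overlapped, IFIH1 kept its call, and 1 gene of the list was called lower. TMEM173 also lost its call with the factor from protein-coding genes.

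Among the other interferon-stimulated genes that passed the filter, PARP9, ISG15 and IFI44 had the largest increases on the log2(scaled TPM + 1) scale. Of 32 on the list, 24 were tested, with a median log2 fold change of 0.42 beside −0.03 over all tested genes. By limma 10 of the 24 were called higher and 0 lower, against 4.67% and 2.63% of all tested genes. At an unadjusted p under 0.05 there were 16 higher and 2 lower, and the share over all genes was not counted at that threshold. The changes of the list ranged from −0.58 to 1.41. PARP9 (log2 fold change 1.41, SE 0.09, limma, adjusted p = 0.00328) and its partner DTX3L (0.82, SE 0.08, adjusted p = 0.0106) rose, as did ISG15, a ubiquitin-like modifier (1.20, SE 0.14, adjusted p = 0.0146), and IFI44 (1.15, SE 0.12, adjusted p = 0.0121). The other 6 called were MX1, OAS1, IFI6, SAMD9L, ADAR and UBE2L6. With TPM as deposited 4 were called higher (PARP9, ISG15, IFI44 and DTX3L) and 1 lower. PARP9 alone of the 10 was called in each fit that left out 1 library. The count was 1 without HA-TAZ 1 or HA-TAZ 2, 2 without HA-TAZ 3 or control b, 4 without control a and 6 without control c. Among the 8 genes below the filter, OAS3, OASL, RSAD2 and USP18 were higher and IFI44L was lower in HA-TAZ libraries without overlap in scaled TPM. These 5 were named after their values were seen. Of all tested genes, 20.2% were higher without overlap in scaled TPM, and the share over all genes below the filter was not counted. USP18 was at 0.410, 0.568 and 0.468 TPM in HA-TAZ libraries, against 0.0261, 0.0540 and 0.0552 TPM in controls. OASL was at 1.43, 1.76 and 1.76 TPM against 0.418, 0.402 and 0.110 TPM. The ratios of mean scaled TPM were 12.9 for USP18 and 6.66 for OASL. These control levels are near 0, so both ratios are uncertain and are not ranked against the IFIT genes. The control values of IFIT2, 0.350 to 0.603 TPM, are low as well, which limits its ratio of 17.4. Large ratios were thus not particular to the IFIT genes. The ratio of mean scaled TPM was 3.92 for PARP9, against 6.60 for IFIT3, 4.30 for IFIT1 and 2.45 for IFIT5.

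IFIT proteins act on translation, by contact with EIF3 and by binding RNA according to its cap, so genes of cap formation and EIF3 were counted too. All 18 were tested, with a median log2 fold change of 0.12 beside −0.03 over all tested genes. By limma 3 were called higher and 0 lower, against 4.67% and 2.63% of all tested genes. At an unadjusted p under 0.05 there were 8 and 0, and the share over all genes was not counted at that threshold. Every gene of this list had a mean above 5 TPM. With a filter at 5 TPM, 1513 of 12613 tested genes were called higher, and 5 of the list. The median of all tested genes was then 0.04, so nothing is read from the count of this list. The capping enzyme RNGTT rose by 0.47 (SE 0.05, limma, adjusted p = 0.0149), and the EIF3 subunits EIF3I (0.23) and EIF3K (0.22) were called higher. EIF3I and EIF3K had negative changes with TPM as deposited (−0.07 and −0.08), and the 3 calls were lost under that setting. CMTR1, which places the cap methylation that hides RNA from IFIT1, was named for this role after its values were seen, and had a log2 fold change of −0.02 (limma, adjusted p = 0.845). RNGTT kept its call without control a or control c and lost it without any other library, and EIF3I and EIF3K lost theirs in all 6 such fits.

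**Figure D4:**
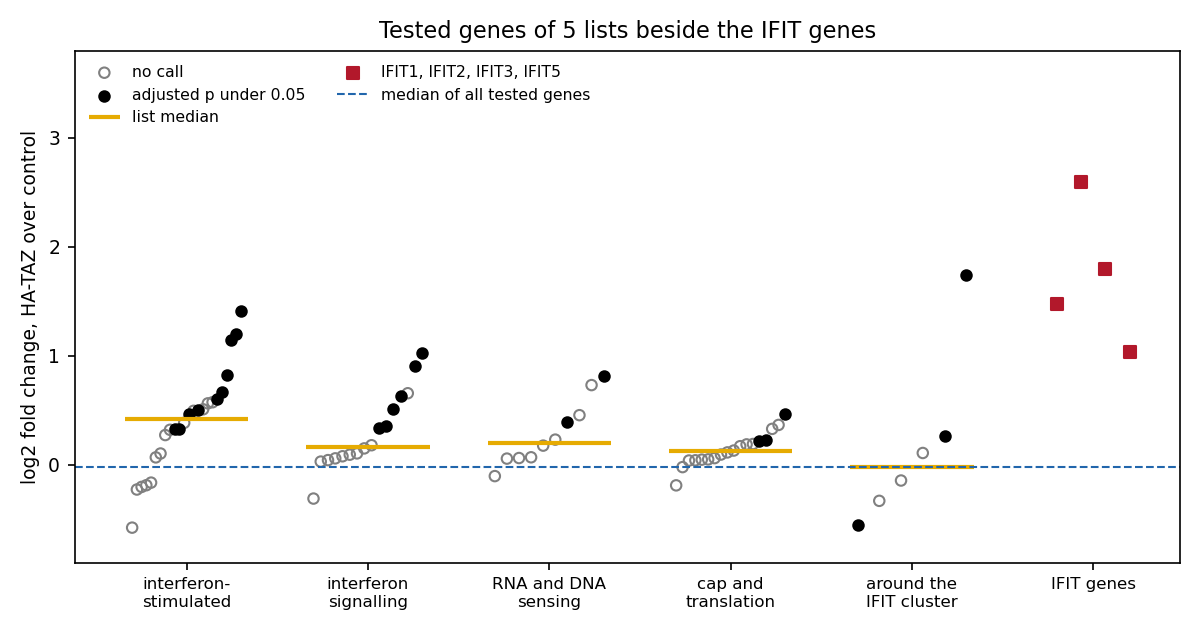
Log2 fold change of HA-TAZ over control for each tested gene of 5 lists and for the 4 IFIT genes. Filled points passed the adjusted p of 0.05, yellow lines are list medians, and the dashed line is the median of all tested genes (−0.03). On this scale the highest tested interferon-stimulated gene is PARP9 (1.41), and genes below the filter, such as USP18 and OASL, are not drawn.

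In chromosome order, the listed genes around the cluster are STAMBPL1, ACTA2, FAS, CH25H and LIPA on one side and SLC16A12, PANK1, KIF20B and HTR7 on the other. FAS, which encodes a death receptor, rose from 8.06 ± 0.905 to 24.01 ± 1.90 TPM (SD, n = 3 each), by 1.75 on the log2 scale (SE 0.07, limma, adjusted p = 0.00111). ACTA2 and STAMBPL1, next to FAS, had changes of −0.33 and 0.11 without a call. PANK1 fell by 0.56 on the log2 scale (SE 0.07, limma, adjusted p = 0.0219). LIPA, a lysosomal lipase gene on the minus strand, spans IFIT2, IFIT3, IFIT1B and IFIT1 in GENCODE release 29, while IFIT5 lies outside it. The level of LIPA averaged 29.9 ± 1.82 TPM with HA-TAZ and 30.5 ± 2.42 TPM without (SD, n = 3 each). Its log2 fold change of 0.27 was called (limma, adjusted p = 0.0397) and turned to −0.03 with TPM as deposited. The calls of LIPA and PANK1 were lost without any 1 library, and that of FAS held in each such fit. A strand setting of the quantifier is not given in the sources used here, and the part of LIPA reads in the IFIT values was not tested. Of 10 listed genes 6 were tested, and the other 4 were below the filter, with CH25H listed at 0 throughout.

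**Figure D5:**
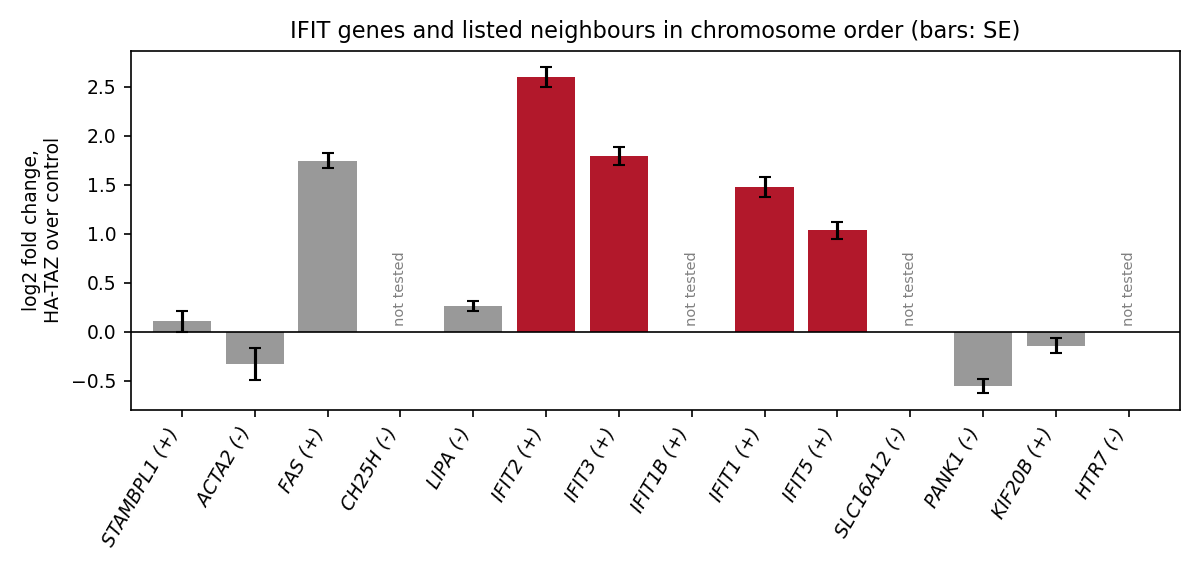
Log2 fold change of HA-TAZ over control, with bars of 1 SE, for the IFIT genes (red) and listed neighbours (grey) in chromosome order, with the strand in brackets. The 4 IFIT genes and FAS (1.75) stand above 1, LIPA is at 0.27, and the remaining tested neighbours lie between −0.56 (PANK1) and 0.11 (STAMBPL1).

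Other genes had nearly the same profile as single members. Likeness was the Euclidean distance between centred log2(scaled TPM + 1) values over the 6 libraries, which is dominated by the difference between the groups. Nearest to IFIT2 were the adhesion molecule gene ICAM1 (distance 0.418), UBD (0.452), which encodes a ubiquitin-like protein, and MIR155HG (0.476), the host transcript of miR-155. Nearest to IFIT3 were FAS (0.157), IL23A (0.249), a cytokine subunit gene, and HLA-DQA1 (0.250). Nearest to IFIT1 were HLA-DRA (0.134), PARP9 (0.178) and SOX9 (0.197), a transcription factor gene. Nearest to IFIT5 were BCL3 (0.144) and NFKBIZ (0.154), which encode nuclear IkB proteins, and RAB9A (0.159), a GTPase gene. These distances were smaller than those between any pair of members, except for the 3 genes nearest to IFIT2. The closest members were IFIT1 and IFIT3 (0.396), and the member closest to IFIT2 was IFIT3 at 1.02. The nearest genes were picked among 22651 tested genes, while the members form only a few fixed pairs. A smaller distance was therefore to be found, and nothing is read from this comparison. HLA-DRA, HLA-DQA1 and UBD have 7, 6 and 7 gene IDs in the table, over which reads could be split, so their values are uncertain.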

How the data were processed

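Total RNA was depleted of ribosomal RNA and sequenced from both ends (100 bases each) in 6 stranded libraries, per the labels' protocols. The authors deposited transcript TPM, with kallisto 0.46.0, sleuth 0.30.0 and build GRCh37 named in the submitters' processing notes. The annotation release is not given in the sources used here. The authors' deposited table of a sleuth comparison holds p-values and q-values, and effects and means, per the file headers. The authors' effects were read as natural log values, since the exponential for IFIT2, 18.0, lies near its ratio of scaled TPM, 17.4. Each TPM column sums to 1000000, so library depth is unknown. All 6 columns were used, and 0 columns belonged to other samples.

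TPM was summed per gene ID (63677 genes) and divided by a median-of-ratios factor from 21512 genes with a mean of at least 1 TPM and values above 0 in all libraries. The 22651 genes with a mean of at least 1 TPM were tested with limma 3.58.1 (R 4.3.3, intensity trend) on log2(scaled TPM + 1). Tests were two-sided, p-values were Benjamini-Hochberg adjusted over all tested genes, and 0.05 was the threshold. The 57448 transcripts past the same filter were fitted alike. The model was run on data simulated with independent noise of a set size and with the same library factors. That run cannot speak to the choice of factors or to libraries that may be technical replicates, and nothing is read from it. Tables were joined with Python 3.11.15 and pandas 2.3.3. Typical counts per group are the exponential of the authors' mean plus or minus 0.5 times the effect, and any offset for zeros is not stated. Promoters are from RefSeq (GRCh38.p14), and gene types, order and transcript models from GENCODE release 29, which differs in build from the files and gave no coordinates. 1 gene of the lists is not reported here by name. The members and lists were chosen with earlier results of these data known. Named are all members, called genes of the lists, the 4 largest changes of a list, direct regulators of IFIT genes, all listed neighbours and the 3 genes nearest to each member. A symbol with several gene IDs was counted by the ID with the highest mean. Alternatives were other scalings, a pseudocount of 0.1, filters of none and of 5 TPM, limma without trend, gene IDs summed by symbol, and leaving out each library.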

Additional observations from a re-analysis of the deposited data

How the results depend on the processing

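In every setting run, 0 of the values of IFIT genes, IFIT transcripts and WWTR1 changed sign, which for the IFIT values follows in part from their choice and supports nothing. A filter of 5 TPM removed the 4 genes. Log2 fold changes with TPM as deposited and with a pseudocount of 0.1 were 1.27 and 2.01 for IFIT1, 2.42 and 3.86 for IFIT2 and its transcript, 1.60 and 2.58 for IFIT3, and 0.80 and 1.26 for IFIT5. For transcripts they were 0.17 and 0.55 (ENST00000546318.1), 1.24 and 2.18 (ENST00000371811.4), 0.64 and 1.17 (ENST00000371795.4), and 0.71 and 1.33 (ENST00000416601.1), and a pseudocount of 0.1 gave 4.63 for ENST00000371804.3, a size set by the pseudocount at control levels near 0 and no measure of its fold. Leaving out 1 library gave 1.41 to 1.55 for IFIT1, 2.54 to 2.65 for IFIT2, 1.74 to 1.84 for IFIT3 and 0.997 to 1.08 for IFIT5.

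Over the whole table, 1057 genes were called higher and 595 lower. With TPM as deposited there were 261 and 3068, without the trend 461 and 297, and without a filter 500 and 191. The factor from protein-coding genes gave 660 higher and 859 lower. Leaving out 1 library gave 93 to 343 higher and 20 to 103 lower, in fits with fewer samples. With TPM as deposited, 4 interferon-stimulated genes were higher and 1 lower, 2 signalling genes higher and 1 lower, 1 sensing gene higher and 1 lower, 0 cap and translation genes higher and 1 gene around the cluster higher. The protein-coding factor gave 1 interferon-stimulated gene lower and 1 higher each for sensing, cap and translation, and genes around the cluster. Without the trend, 3 signalling genes, 1 cap and translation gene and 1 gene around the cluster were higher. Without a filter, sensing, cap and translation, and genes around the cluster had 1 higher each. The filter of 5 TPM gave 1 sensing gene and 5 cap and translation genes higher. Over all 12613 genes tested with that filter, 1513 were called higher and 727 lower. Leaving out 1 library gave 1 to 6 interferon-stimulated, 1 to 3 signalling, 0 to 1 sensing, 0 to 1 cap and translation genes and 1 gene around the cluster higher, and 0 lower. The cause of these shifts was not tested, also for the fits that left out 1 library and so had fewer samples. TPM carries no depth, so precision at the low control levels is known only from the authors' implied counts. For transcripts listed at 0 in a control, these counts do not give it. No paired analysis was possible because the control columns carry a name that is in no label, so a control column cannot be matched to 1 particular wild type sample.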
